A study of Mus musculus with 18 samples.

Results

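A set of 9 genes that mark mast cells was followed through 18 two-colour microarrays of mouse intestine: Cpa3, Mcpt1, Mcpt2, Mcpt4, Cma1, Ms4a2, Kit, Tpsb2 and Fcer1a. They were chosen by name, and a probe was assigned to a gene through its RefSeq accession. Of the 9 genes, 8 had a probe and all 8 passed the filter on dim probes, among 26073 genes tested in all; Kit was not analysed here. Cma1 had 2 probes, of which the brighter was used, and the other 7 genes had 1 probe each.

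Mast cells are tissue-resident immune cells that store proteases and histamine in granules and release them when IgE bound to their surface receptor meets antigen. In mice, mucosal mast cells of the gut epithelium are known for the chymases Mcpt1 and Mcpt2, while connective-tissue mast cells of the submucosa and muscle are known for the chymases Mcpt4 and Cma1 (also called Mcpt5), the tryptase Tpsb2 and the carboxypeptidase Cpa3. Fcer1a and Ms4a2 encode the alpha and beta chains of the IgE receptor and are shared with basophils, and Kit is the receptor for stem cell factor.

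All samples came from male C57BL/6 mice, in 6 groups of 3 arrays, and the design crossed diet with injection and added tumours. Tumours were taken from mice injected with azoxymethane (AOM), a carcinogen that induces intestinal tumours in rodents, whose diet held the herb St. John's wort (abbreviated SJW) or was a control diet. Non-tumour tissue was taken from AOM-injected mice on each diet and from saline-injected mice on each diet. On each array the sample was labelled red (Cy5) and a commercial RNA pool from Swiss Webster mice green (Cy3), and every value below is a log2 ratio of sample over pool or a difference of such ratios. The pool held embryo and 9 adult organs and no intestine, so the ratio has no meaning as an amount; it serves to compare samples for 1 gene at a time. The design text calls the samples of a group biological replicates and does not say whether each is a separate mouse or tumour, so p-values measure only the spread between these samples.

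By its labels the tissue is small intestine, but genes of colon epithelium stood far above the pool. The mean ratio of 9 measured colon genes was 4.01 to 4.63 on saline SJW arrays and 4.24 to 4.41 on saline control arrays. Genes of small-intestinal enterocytes also stood above the pool. The mean ratio of 10 such genes had a median over arrays of 1.75 after saline on the SJW diet and 1.63 on the control diet. Lct, the lactase of these cells, was near the pool, at -0.05 ± 0.19 after saline on the SJW diet and 0.11 ± 0.22 on the control diet. Which part of the intestine was sampled was not tested. The extraction protocol names liver, and the hepatocyte gene Alb averaged -3.67 ± 0.55 and -2.77 ± 0.81 in the same 2 groups (SD, n = 3 arrays each). The tissue is called intestine here. Tumour arrays filled 2 slides with a later scan day than the 3 slides of non-tumour arrays, so tumour tissue, slide and scan day cannot be told apart. Median red intensity was 318 to 734 on tumour arrays and 128 to 349 on non-tumour arrays.

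Most of the mast cell genes were higher in tumours than in saline tissue in both diets, and the difference was largest for Mcpt1 except with the scanner's ratio and the deposited table, described below. Of the 8 genes, 7 passed the test on the SJW diet and 7 on the control diet, all higher in tumours; Cma1 was the exception in both. The test was limma's, with Benjamini-Hochberg adjusted p under 0.05 over all genes. In these comparisons 36.2% of all genes passed on the SJW diet (13.7% higher and 22.5% lower in tumours) and 32.9% on the control diet (13.2% higher and 19.6% lower). The median difference of the 8 genes was 1.80 on the SJW diet and 2.13 on the control diet, beside -0.07 and -0.04 over all genes. Cpa3 and Ms4a2 passed the filter on dim probes only through tumour groups, where they are high, so their calls were favoured by the filter. Of the other 6 genes 5 passed in each diet, with medians of 1.87 on the SJW diet and 2.35 on the control diet.

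The chymase genes lie close together on chromosome 14, in the order Cma1, Cma2, Mcpt1, Mcpt2, Mcpt9, Mcpt4, Mcpt8 and Ctsg among the protein-coding genes. The 250 bases before the start of Mcpt1, Mcpt4 and Cma1 are shown because Mcpt4, like Mcpt1, was higher in tumours than in saline tissue and Cma1 did not pass that test. They are from RefSeq on GRCm38.p6, read 5′ to 3′ on the strand of the gene, at chr14:56017714-56017963 (plus strand), chr14:56062311-56062560 (minus strand) and chr14:55944676-55944925 (minus strand). Capitals mark GATAA on either strand, the core of the site bound by GATA factors.
Mcpt1: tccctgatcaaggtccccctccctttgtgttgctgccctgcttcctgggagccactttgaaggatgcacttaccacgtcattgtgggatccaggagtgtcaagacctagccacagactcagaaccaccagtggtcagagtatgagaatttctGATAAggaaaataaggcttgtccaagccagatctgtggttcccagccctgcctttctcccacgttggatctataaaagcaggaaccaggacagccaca
Mcpt4: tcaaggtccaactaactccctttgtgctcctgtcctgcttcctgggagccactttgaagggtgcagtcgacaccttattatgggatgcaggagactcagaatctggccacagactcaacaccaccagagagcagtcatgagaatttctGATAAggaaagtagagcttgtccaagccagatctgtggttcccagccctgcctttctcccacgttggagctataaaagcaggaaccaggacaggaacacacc
Cma1: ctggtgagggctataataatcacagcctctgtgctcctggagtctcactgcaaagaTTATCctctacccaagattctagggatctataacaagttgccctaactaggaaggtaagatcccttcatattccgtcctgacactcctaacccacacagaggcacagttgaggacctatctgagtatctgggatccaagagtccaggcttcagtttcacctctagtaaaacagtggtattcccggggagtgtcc
In a global alignment with ends left free and not counted, the Mcpt1 and Mcpt4 stretches had the same base at 210 of 247 aligned positions (85%) and shared an unbroken run of 53 bases. The Cma1 stretch had the same base as Mcpt1 at 93 of 163 positions and as Mcpt4 at 98 of 170, with a longest shared run of 10 bases against each. RefSeq's table held this stretch for 6 of the 8 genes (also Cpa3, Ms4a2 and Fcer1a), and all 6 held GATAA on 1 strand or the other, beside 22.6% of 32851 promoters in the table. A match is a description of the letters and shows no binding.

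Mcpt1, the main chymase of gut mucosal mast cells, had ratios of 3.92, 4.22 and 4.92 in SJW tumours and 4.70, 4.47 and 6.52 in control-diet tumours. In AOM non-tumour tissue they were 2.12, 2.81 and 3.49 on the SJW diet and 3.41, 5.63 and 1.52 on the control diet. In saline tissue they were 0.92, 0.91 and 3.04 on the SJW diet and 1.00, 0.37 and 2.21 on the control diet. Every tumour array was above every saline array of its diet, and AOM tissue overlapped saline tissue in both diets. On the SJW diet all tumours were above AOM tissue, while on the control diet AOM replicate 2 was above 2 of the 3 tumours. The difference of tumours from saline tissue was 2.73 ± 0.86 (SE) on the SJW diet (adjusted p = 0.0208) and 4.04 ± 0.86 on the control diet (adjusted p = 0.00216, 16.4-fold). The pool itself had little Mcpt1 signal, green being well above background on 5 of 18 arrays, while red was so on all 18. With the scanner's own ratio the 2 differences were 1.74 (adjusted p = 0.273) and 1.48 (adjusted p = 0.379), and with red alone the control-diet one was 3.85 (adjusted p = 0.000141).

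Mcpt2, the second mucosal chymase, had ratios of 2.74, 3.09 and 3.52 in SJW tumours and 2.60, 3.38 and 5.93 in control-diet tumours. In AOM tissue they were 1.42, 1.28 and 2.20 on the SJW diet and 1.70, 3.46 and 1.05 on the control diet. In saline tissue they were 1.23, 0.63 and 1.48 on the SJW diet and 0.84, 0.18 and 0.92 on the control diet. As for Mcpt1, no tumour array overlapped the saline arrays of its diet, and tumour control replicate 3 and AOM control replicate 2 were the highest of their groups. Tumours were 2.01 ± 0.68 above saline tissue on the SJW diet (adjusted p = 0.0301) and 3.33 ± 0.68 on the control diet (adjusted p = 0.00157).

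Mcpt4, a chymase of connective-tissue mast cells, had ratios of 2.43, 2.46 and 2.96 in SJW tumours and 3.13, 2.39 and 4.09 in control-diet tumours. In AOM tissue they were 1.07, 0.89 and 1.83 on the SJW diet and 1.49, 2.96 and 0.97 on the control diet. All 6 saline arrays lay between -0.00 and 0.77, below every AOM and every tumour array. The difference of tumours from saline tissue was 2.26 ± 0.46 on the SJW diet (adjusted p = 0.00125) and 2.86 ± 0.46 on the control diet (adjusted p = 0.000228). This call stood in each of 18 refits without 1 array and in 9 of 9 other settings, in both diets.

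Cma1, the other connective-tissue chymase, showed another pattern. Its ratios were 0.66, 1.05 and 1.48 in SJW tumours and 1.44, 1.71 and 2.67 in control-diet tumours. In AOM tissue they were 2.92, 3.12 and 2.78 on the SJW diet and 2.45, 3.97 and 1.86 on the control diet. In saline tissue they were 2.16, 2.75 and 0.22 on the SJW diet and 1.77, 1.34 and 2.29 on the control diet. The SJW tumours lay below all SJW AOM arrays, and in every other comparison of tumour with non-tumour tissue the Cma1 values overlapped. Against saline tissue the difference was -0.64 ± 0.57 on the SJW diet (adjusted p = 0.407) and 0.14 ± 0.57 on the control diet (adjusted p = 0.874). The sign of the control-diet difference turned in 3 other settings, to -0.28 with red alone.

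**Figure D1:**
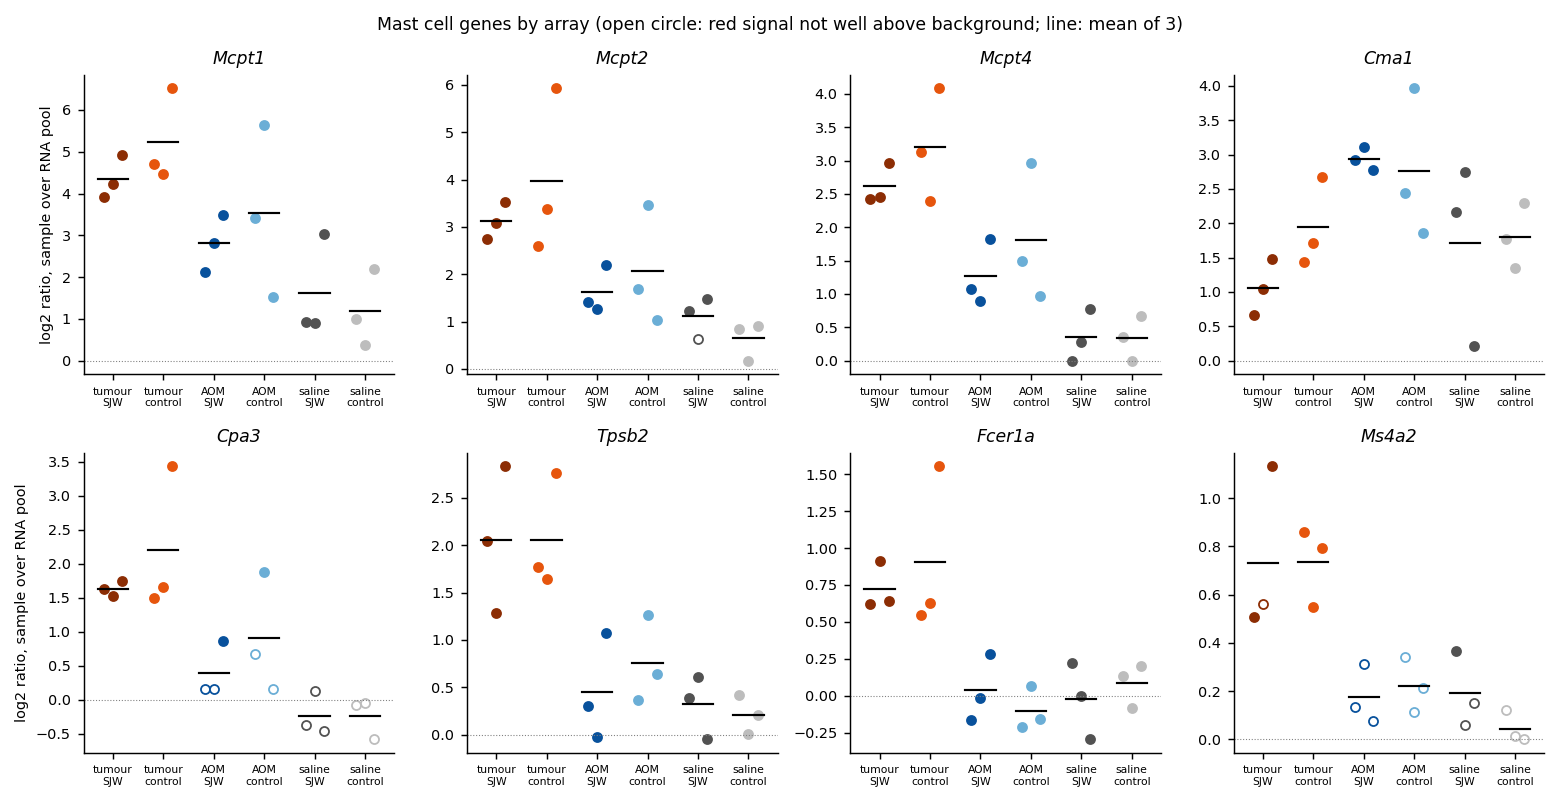
Log2 ratio of sample over RNA pool (y axis) of the 8 measured mast cell genes on each of 18 arrays, by group (x axis); open circles are arrays whose red signal was not well above background, and lines are means of 3 arrays. The means of 7 genes are highest in the tumour groups, while those of Cma1 are highest in AOM non-tumour tissue.

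Cpa3, the granule carboxypeptidase, had ratios of 1.63, 1.53 and 1.74 in SJW tumours and 1.50, 1.66 and 3.43 in control-diet tumours. In AOM tissue they were 0.16, 0.16 and 0.86 on the SJW diet and 0.67, 1.88 and 0.16 on the control diet. All 6 saline arrays lay between -0.57 and 0.12. Its red signal was well above background on all 6 tumour arrays, on AOM SJW replicate 3 and AOM control replicate 2, and on none of the 6 saline arrays. For a bound, the dim arrays were set no lower than their lowest detected signal. In this processing tumours were then at least 3.35-fold above saline tissue on the SJW diet and at least 4.66-fold on the control diet. The fitted log2 differences of Cpa3 were 1.87 ± 0.45 on the SJW diet (adjusted p = 0.00412) and 2.43 ± 0.45 on the control diet (adjusted p = 0.000757). Over 9 other settings they ran from 1.56 to 4.59 and from 1.58 to 4.57, highest with the scanner's ratio, and passed in all 9. The bounds are therefore no minimum over settings. Such bounds use each channel after scaling between arrays and are open to dye bias, as dyes were not swapped.

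Tpsb2, a tryptase stored mainly by connective-tissue mast cells, had ratios of 2.04, 1.29 and 2.83 in SJW tumours and 1.77, 1.64 and 2.76 in control-diet tumours. In AOM tissue they were 0.30, -0.02 and 1.07 on the SJW diet and 0.36, 1.26 and 0.65 on the control diet, and in saline tissue -0.04 to 0.61 over 6 arrays. Every tumour array was above every non-tumour array. The difference of tumours from saline tissue was 1.73 ± 0.38 on the SJW diet (adjusted p = 0.00234) and 1.84 ± 0.38 on the control diet (adjusted p = 0.00183).

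The 2 IgE receptor chains moved less. Fcer1a, the IgE-binding chain, had ratios of 0.62, 0.91 and 0.64 in SJW tumours and 0.55, 0.63 and 1.55 in control-diet tumours, against -0.29 to 0.29 over the 12 non-tumour arrays, without overlap. Its difference of tumours from saline tissue was 0.75 ± 0.22 on the SJW diet (adjusted p = 0.0154) and 0.82 ± 0.22 on the control diet (adjusted p = 0.0104). With red alone these were 0.20 (adjusted p = 0.469) and 0.47 (adjusted p = 0.0943). Ms4a2, the signalling beta chain, had ratios of 0.51, 0.56 and 1.13 in SJW tumours and 0.86, 0.55 and 0.79 in control-diet tumours, against 0.00 to 0.36 over the 12 non-tumour arrays. It was dim, with red well above background on 5 of 6 tumour arrays and 1 of 12 non-tumour arrays. In this processing control-diet tumours were at least 1.46-fold above saline tissue (adjusted p = 0.00343). SJW tumours were 0.54 ± 0.16 above saline tissue on the log2 scale (adjusted p = 0.0131). With median centring in place of loess the control-diet sign turned, to -0.50 (adjusted p = 0.248). In both diets the call stood in 5 of 9 other settings and was lost with median centring, the scanner's ratio, the deposited table and red alone.

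Against AOM non-tumour tissue the tumour differences were smaller. On the SJW diet 5 of 8 genes passed, 4 higher (Mcpt4, Tpsb2, Fcer1a, Ms4a2) and 1 lower (Cma1), and on the control diet 6 of 8, all higher (Cpa3, Mcpt2, Mcpt4, Tpsb2, Fcer1a, Ms4a2). Of all genes 24.6% passed on the SJW diet (9.18% higher, 15.4% lower) and 32% on the control diet (12.7% higher, 19.3% lower). The median difference of the 8 genes was 1.30 in both diets, beside -0.06 on the SJW diet and -0.05 on the control diet over all genes. Without Cpa3 and Ms4a2, 3 of 6 genes were higher and 1 lower on the SJW diet and 4 of 6 higher on the control diet. Mcpt1 did not pass on either diet, at 1.54 ± 0.86 (adjusted p = 0.203) on the SJW diet and 1.71 ± 0.86 (adjusted p = 0.14) on the control diet. With the scanner's own ratio the SJW difference of Mcpt1 turned to -0.20 (adjusted p = 0.921), and with red alone the control-diet one was 2.27 (adjusted p = 0.0099).

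Against AOM tissue the smallest adjusted p was that of Tpsb2 on the SJW diet and of Fcer1a on the control diet. Tpsb2 was 1.60 ± 0.38 higher in SJW tumours (adjusted p = 0.00683) and 1.30 ± 0.38 higher in control-diet tumours (adjusted p = 0.017). Fcer1a was 0.69 ± 0.22 higher in SJW tumours (adjusted p = 0.0342) and 1.01 ± 0.22 higher in control-diet tumours (adjusted p = 0.00304). With red alone the SJW difference of Fcer1a was 0.20 (adjusted p = 0.5), and its call stood in 13 of 18 refits without 1 array. Mcpt4 was 1.35 ± 0.46 higher in SJW tumours (adjusted p = 0.0419) and 1.39 ± 0.46 higher in control-diet tumours (adjusted p = 0.0298). Without 1 array these Mcpt4 calls stood in 10 of 18 refits on the SJW diet and 14 of 18 on the control diet. Both were narrowly lost with the scanner's ratio (adjusted p = 0.053 and 0.0503) and the deposited table (adjusted p = 0.0557 and 0.0533). Mcpt2 was 1.49 ± 0.68 higher in SJW tumours, which did not pass (adjusted p = 0.122), and 1.90 ± 0.68 higher in control-diet tumours (adjusted p = 0.0427). The control-diet Mcpt2 call stood in only 8 of 18 refits without 1 array. It was lost with the scanner's ratio, at 1.23 (adjusted p = 0.233), and with the deposited table (adjusted p = 0.237). Cpa3 was 1.24 ± 0.45 higher in SJW tumours, just outside the threshold (adjusted p = 0.0548), and 1.29 ± 0.45 higher in control-diet tumours (adjusted p = 0.0383). As 2 of 3 AOM arrays in each diet had Cpa3 near background, these sizes are uncertain. The control-diet call was lost with median centring (adjusted p = 0.0628), the scanner's ratio (adjusted p = 0.269) and the deposited table (adjusted p = 0.273), and with red alone the SJW difference passed, at 0.95 (adjusted p = 0.0354). Ms4a2 was 0.56 ± 0.16 higher in SJW tumours (adjusted p = 0.0167), where red was well above background on only 2 of 3 arrays. In this processing it was at least 1.40-fold higher in control-diet tumours (adjusted p = 0.0208). With median centring these Ms4a2 differences were 0.14 (adjusted p = 0.834) and 0.032 (adjusted p = 0.963), and both calls were also lost with the scanner's ratio, the deposited table and red alone.

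Several of these calls were lost in refits without 1 array. Such a refit leaves 2 arrays in a group, and the share of all genes passing in it is not shown. Without tumour control replicate 3, 1 of 8 genes passed on the control diet, and without AOM control replicates 1 or 3 it was 2 and 3. On the SJW diet 1, 2 and 3 genes passed without AOM replicates 1, 2 and 3, and 2 without any 1 of the tumour replicates. The calls of Fcer1a on the control diet and Tpsb2 on the SJW diet stood in each of 18 refits without 1 array. Against saline tissue the count without 1 array was 7 throughout on the control diet, and on the SJW diet it fell to 4 without saline replicate 2 or without tumour replicate 3.

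**Figure D2:**
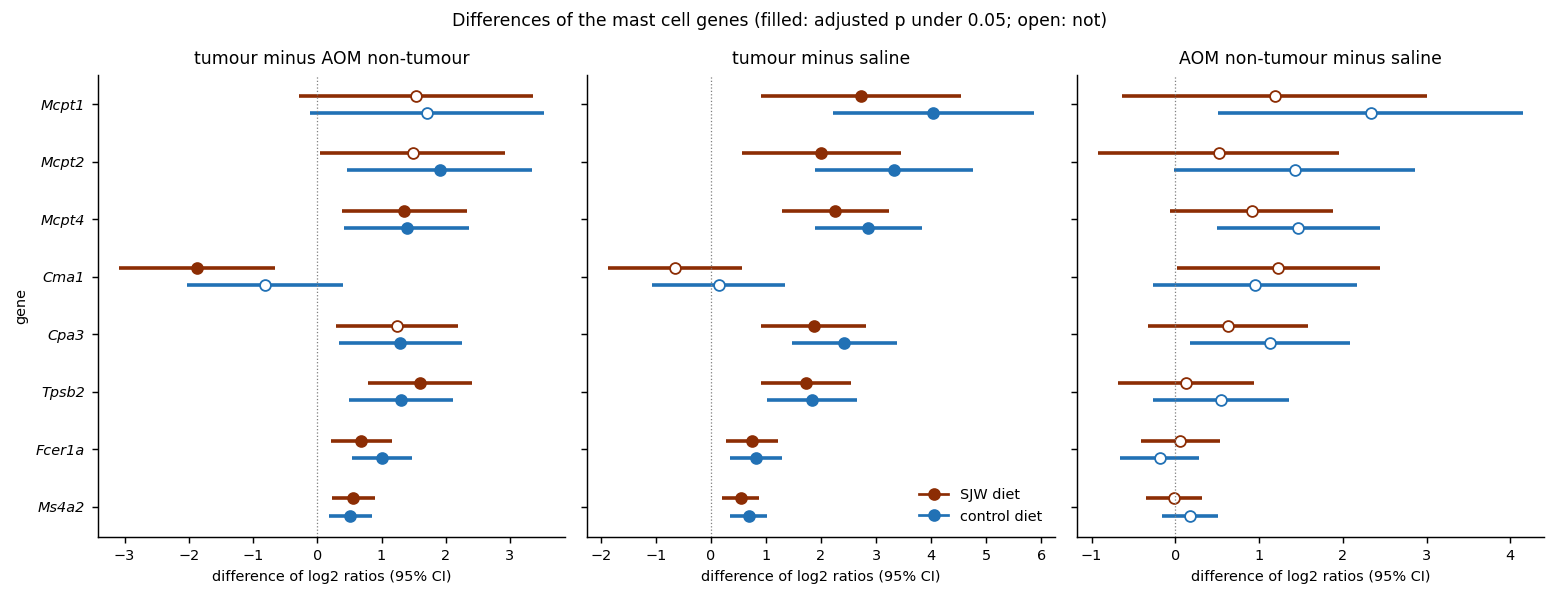
Difference of log2 ratios (x axis, with 95% confidence interval) of the 8 genes (y axis) for 3 comparisons in each diet; filled points passed at an adjusted p under 0.05. In tumours against saline tissue 7 genes passed and lie right of 0, Cma1 passed only in SJW tumours against AOM tissue, where it lies left of 0, and no gene passed between AOM and saline tissue.

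Between AOM and saline non-tumour tissue no mast cell gene passed in either diet, beside 1.14% of all genes on the SJW diet (0.656% higher and 0.479% lower after AOM) and 0.583% on the control diet (0.456% higher and 0.127% lower). At an unadjusted p under 0.05 there were 1 of 8 genes on the SJW diet (Cma1) and 3 of 8 on the control diet (Cpa3, Mcpt1, Mcpt4), beside 5039 of 26073 genes on the SJW diet and 3546 of 26073 on the control diet. The differences were positive for 7 of 8 genes in each diet, with medians of 0.57 on the SJW diet and 1.04 on the control diet, beside -0.02 and -0.01 over all genes. Mcpt4 was 0.91 ± 0.46 higher after AOM on the SJW diet (adjusted p = 0.288) and 1.47 ± 0.46 on the control diet (adjusted p = 0.144). Mcpt1 was 1.18 ± 0.86 higher on the SJW diet (adjusted p = 0.456) and 2.33 ± 0.86 on the control diet (adjusted p = 0.225). Each non-tumour slide held 1 array of each group. Within slides 1 to 3 the median AOM difference of the 8 genes was 0.36, 0.31 and 0.89 on the SJW diet and 0.70, 2.28 and 0.17 on the control diet. The largest of these, on slide 2, is the slide of AOM control replicate 2, on which Mcpt1 was 5.27 above its saline array.

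Between the SJW and control diets no mast cell gene passed in tumours, AOM tissue or saline tissue, and 0 of 26073 genes (0%) passed in each comparison by limma. At an unadjusted p under 0.05 there were 2787 genes after saline, 829 after AOM and 1565 in tumours, and none of the 8 was among them. In tumours all 8 differences of SJW from control were negative, from -0.88 for Mcpt1 and Cma1 to -0.00 for Ms4a2 and Tpsb2. Their 95% intervals reached from -2.70 to 0.94 for Mcpt1 and from -0.82 to 0.81 for Tpsb2, so sizeable differences either way remain within the error. The tumour-against-AOM difference and the AOM-against-saline difference were also compared between the diets, and no gene passed (0 of 26073; 1079 and 2435 at an unadjusted p under 0.05, none a mast cell gene).

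The mucosal proteases and the connective-tissue proteases were set against each other on each array, as the mean of Mcpt1 and Mcpt2 minus the mean of Mcpt4 and Cma1. Since each gene is relative to the pool, only differences between groups are read from this value. It was 1.78 to 2.00 in SJW tumours and 1.37 to 2.85 in control-diet tumours. In AOM tissue it was -0.23 to 0.54 on the SJW diet and -0.13 to 1.08 on the control diet. In saline tissue it was -0.74 to 1.76 on the SJW diet and -0.40 to 0.08 on the control diet. The group means were 1.90 ± 0.11 in SJW tumours and 2.03 ± 0.75 in control-diet tumours, 0.12 ± 0.39 and 0.51 ± 0.61 in AOM tissue on the SJW and control diets, and 0.34 ± 1.29 and -0.15 ± 0.24 in saline tissue on the SJW and control diets (SD, n = 3 arrays each; no test was made of a value over genes).

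The connective-tissue chymases themselves parted between tissues. Mcpt4 minus Cma1 was 0.67 to 1.77 over the 6 tumour arrays and -2.47 to 0.56 over the 12 non-tumour arrays, without overlap, and the highest non-tumour array was saline SJW replicate 3. Across the 12 non-tumour arrays the ratio of Mcpt4 followed the mean of Mcpt1 and Mcpt2 with Pearson's r = 0.95, and Cma1 did so with r = 0.51; across the 6 tumour arrays r was 0.89 and 0.93. Among the tumour arrays, control-diet replicate 3 was highest for Mcpt1, Mcpt2, Mcpt4 and Cma1. Among the SJW tumours, replicate 3 was likewise highest for these genes. The tumour arrays of replicate 3 shared a slide, apart from the slide of the other tumour arrays. The part of slide in the tumour correlations was not tested. Arrays share the pool and its noise, so these values are descriptions.

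Smooth muscle genes changed across the same groups. Their mean over 13 genes was -0.93 to -0.49 in SJW tumours and -1.03 to -0.77 in control-diet tumours, 0.26 to 2.53 and 0.86 to 2.33 in AOM tissue on the SJW and control diets, and -1.01 to 0.22 and -1.25 to 0.78 in saline tissue on the SJW and control diets. Of the 13 genes, 9 passed as lower in tumours than in AOM tissue on the SJW diet and 11 on the control diet. Of all genes 15.4% passed as lower on the SJW diet and 19.3% on the control diet. Across the 12 non-tumour arrays Cma1 followed this mean with r = 0.79, and across the 6 tumour arrays with r = -0.85. On saline SJW replicate 3, where Cma1 was lowest at 0.22, the smooth muscle mean was -1.01. The part of smooth muscle content in the Cma1 values was not tested. The second, dimmer Cma1 probe gave -1.36 in SJW tumours and -0.38 in control-diet tumours against AOM tissue, beside -1.87 ± 0.57 (adjusted p = 0.026) and -0.81 ± 0.57 (adjusted p = 0.295) for the probe used. The SJW call was lost with the mean of the probes, at -1.62 (adjusted p = 0.0664), and with median centring, at -1.56 (adjusted p = 0.0544), and it stood in 13 of 18 refits without 1 array.

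**Figure D3:**
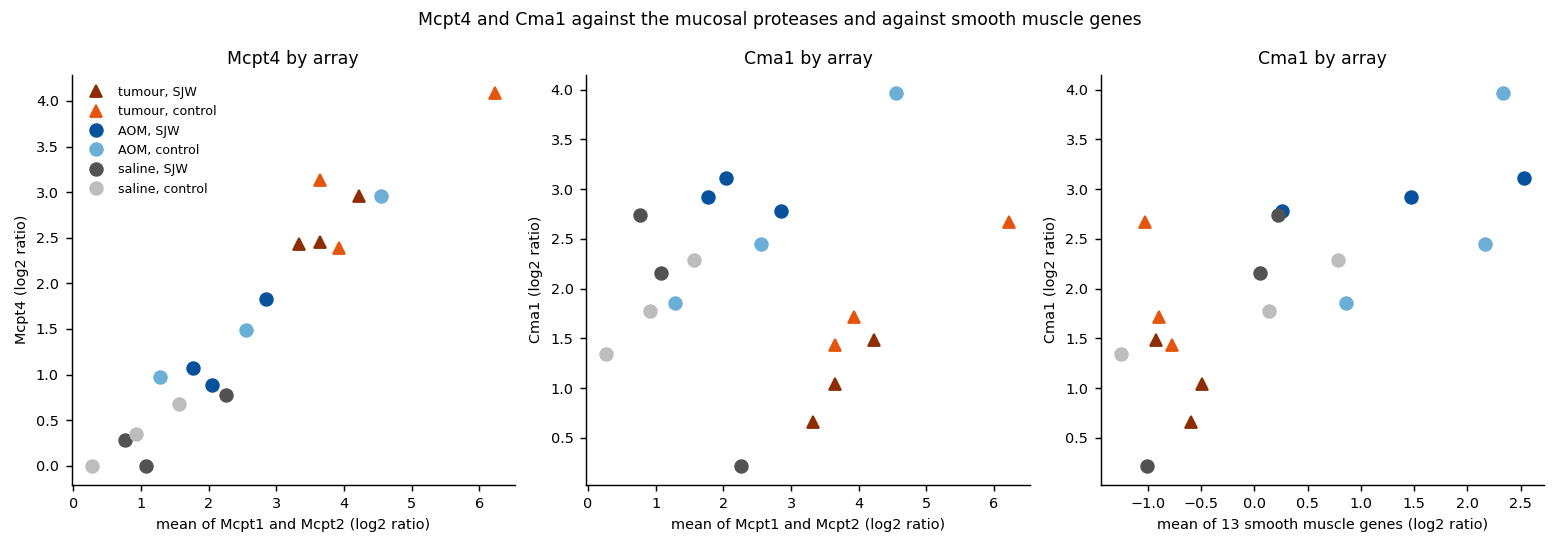
Log2 ratios on each of 18 arrays of Mcpt4 and Cma1 (y axes) against the mean of Mcpt1 and Mcpt2, and of Cma1 against the mean of 13 smooth muscle genes (x axes); triangles are tumours and circles non-tumour tissue. Mcpt4 lies along 1 rising band with the mucosal proteases over both tissues, while the tumour values of Cma1 rise along a separate line at higher values of the mucosal proteases, and saline SJW replicate 3 is the lowest point for Cma1.

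**Figure D4:**
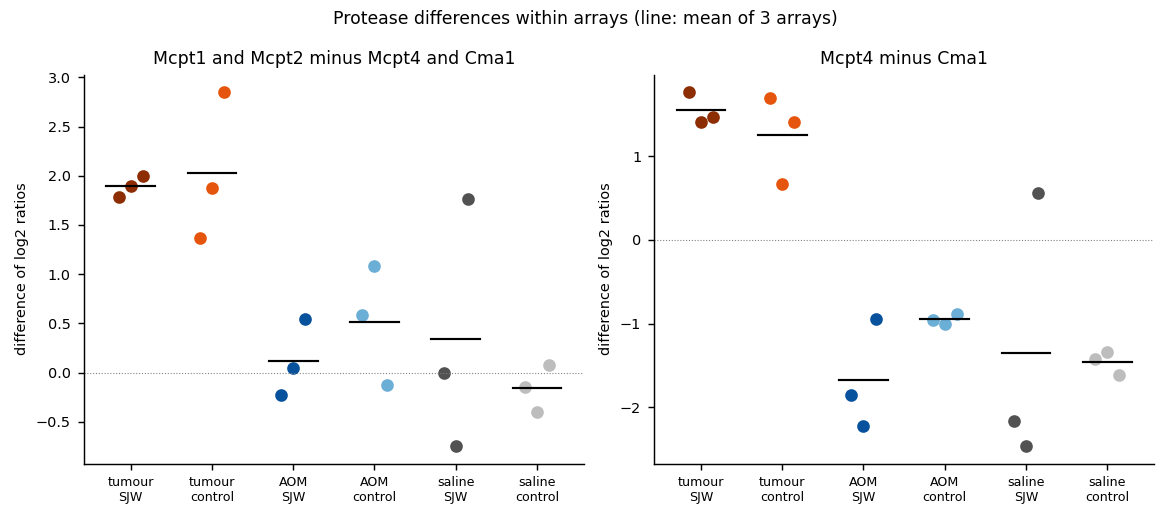
Difference of log2 ratios (y axis) on each array by group (x axis), for the mucosal minus the connective-tissue pair (left panel) and for Mcpt4 minus Cma1 (right panel); lines are means of 3 arrays. The 6 tumour arrays lie at 0.67 or more in the right panel, above all 12 non-tumour arrays.

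Neighbours of these genes on chromosome 14 were measured on the same arrays. Cma2, a chymase-like gene between Cma1 and Mcpt1, was the gene whose profile was most like that of the mucosal proteases, with r = 0.951 over the 12 non-tumour and r = 0.952 over the 6 tumour arrays. Its difference of tumours from saline tissue was 0.64 ± 0.33 on the SJW diet (adjusted p = 0.148) and 1.03 ± 0.33 on the control diet (adjusted p = 0.0275). Chymase genes are similar in sequence, and whether a probe also binds the RNA of a neighbour was not tested. Mcpt8, a protease of basophils at the other end of the cluster, was dim and averaged 0.36 ± 0.25 in SJW tumours and 0.39 ± 0.16 in control-diet tumours, against -0.06 ± 0.11 and 0.05 ± 0.18 in AOM tissue on the SJW and control diets (SD, n = 3 arrays each). Mcpt8 was kept by the filter on dim probes only through control-diet tumours, where it is high, so its calls were favoured by the filter. By limma it passed on the SJW diet (adjusted p = 0.0456) and not on the control diet (adjusted p = 0.0871). Ctsg, the next protein-coding gene, was lower in SJW tumours than in saline tissue, with a difference of -0.61 ± 0.17 (adjusted p = 0.00983), and the difference was 0.24 ± 0.17 on the control diet (adjusted p = 0.287).

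After Cma2, the genes most like the mucosal profile by the smaller of the 2 correlations were Zc3h12a (0.878), Slamf8 (0.865), Trim15 (0.838), Gpx2 (0.83), Ttf2 (0.824), Duoxa2 (0.818), Rps12 (0.815), Piga (0.811) and S100a4 (0.81). For the mean of Mcpt4 and Cma1 they were Krt90 (0.833), Phox2a (0.823), Gpx2 (0.815), Zc3h12a (0.805), Ctps (0.805), Tnfrsf11b (0.802), Defa3 (0.801), Slc7a11 (0.796), Gcnt2 (0.794) and Fbl (0.792). Gpx2 and Zc3h12a were in both lists. Among the members, Mcpt1 with Mcpt4 reached r = 0.94 over non-tumour and 0.955 over tumour arrays, and Mcpt1 with Mcpt2 0.933 and 0.931. Cpa3 with Fcer1a had r = 0.078 over non-tumour and 0.93 over tumour arrays, and Ms4a2 stayed between -0.192 and 0.15 with all other members over non-tumour arrays. Over these arrays red was well above background on 1 of 12 for Ms4a2 and 2 of 12 for Cpa3, which limits what low correlations show. With Mcpt1, Mcpt2, Mcpt4, Cma1 and Tpsb2 over the same arrays, Cpa3 had r of 0.702 to 0.884. Fcer1a, with red well above background on all 18 arrays, had r of -0.031 to 0.431 with these genes. The reason for the low values was not tested.

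Of 26 further mast cell genes 22 were measured. Against AOM tissue 3 were higher and 4 lower in SJW tumours, and 4 higher and 5 lower in control-diet tumours, with list medians of -0.09 and 0.01. Over all genes 9.18% were higher and 15.4% lower on the SJW diet, and 12.7% higher and 19.3% lower on the control diet, so nothing about the list is read from these counts. Hdc and Gzmb, called higher on the control diet, passed the filter on dim probes only through tumour groups. Against saline tissue it was 4 higher and 7 lower on the SJW diet and 5 higher and 6 lower on the control diet. None passed between AOM and saline tissue. Il1rl1, the receptor for the alarmin IL-33, was 1.35 ± 0.35 higher in SJW tumours (adjusted p = 0.0102) and 1.99 ± 0.35 higher in control-diet tumours than in AOM tissue (adjusted p = 0.000523). Its ratios of 2.30, 2.03 and 2.33 in SJW tumours and 2.49, 2.57 and 4.23 in control-diet tumours were above all 12 non-tumour arrays. Fcer1g, the signalling gamma chain that many leukocytes share, was 1.01 ± 0.23 higher in SJW tumours (adjusted p = 0.00549) and 0.98 ± 0.23 in control-diet tumours (adjusted p = 0.00477). Tpsg1, a membrane-anchored tryptase, was lower, with differences of -1.98 ± 0.34 in SJW tumours (adjusted p = 0.000641) and -2.59 ± 0.34 in control-diet tumours (adjusted p = 5.26e-05). Mitf, a transcription factor of mast cells and melanocytes, was also lower, with differences of -0.86 ± 0.28 (adjusted p = 0.0326) and -1.17 ± 0.28 (adjusted p = 0.00452) on the SJW and control diets.

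Of 21 growth, cytokine and homing genes of mast cells, 19 were measured, and 2 were higher and 1 lower in tumours than in AOM tissue in each diet, beside 24.6% of all genes called on the SJW diet and 32% on the control diet, which is a larger share. Il33, an alarmin of epithelial and stromal cells, was higher in both, by 1.48 ± 0.29 in SJW tumours (adjusted p = 0.00149) and 1.22 ± 0.29 in control-diet tumours (adjusted p = 0.00448). Its ratios were -0.00 to 1.28 in SJW tumours and 0.57 to 1.16 in control-diet tumours, all above the 12 non-tumour arrays, of which the highest was -0.14. Kitl, the stem cell factor that binds Kit, was 1.19 ± 0.21 higher in SJW tumours (adjusted p = 0.000749), and on the control diet the difference was 0.45 ± 0.21 (adjusted p = 0.111). Stat5b, a transducer of cytokine signals, was lower, with differences of -0.50 ± 0.15 in SJW tumours (adjusted p = 0.0271) and -0.69 ± 0.15 in control-diet tumours (adjusted p = 0.00349). Of 10 chemoattractant and mediator-receptor genes 8 were measured, with 2 higher and 2 lower in SJW tumours and 3 higher and 3 lower in control-diet tumours. Ccl2, with the smallest p of these, was 0.74 ± 0.16 higher in SJW tumours (adjusted p = 0.00279) and 0.88 ± 0.16 in control-diet tumours (adjusted p = 0.000625). The chemokine Cxcl1 was 1.09 ± 0.25 higher in SJW tumours (adjusted p = 0.00461) and 1.34 ± 0.25 in control-diet tumours (adjusted p = 0.000793). The histamine receptor Hrh1 was lower, with differences of -0.77 ± 0.26 in SJW tumours (adjusted p = 0.0444) and -1.46 ± 0.26 in control-diet tumours (adjusted p = 0.000694).

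Some markers of other cells also differed between tumour and non-tumour tissue, and their part in the results above was not tested. Against AOM tissue 9.18% of all genes passed as higher and 15.4% as lower on the SJW diet, and 12.7% and 19.3% on the control diet. Against saline tissue it was 13.7% higher and 22.5% lower on the SJW diet, and 13.2% and 19.6% on the control diet. Nothing about a list is read from a count near these shares. In bulk tissue more cells of a type and more RNA per cell cannot be told apart. Of 8 basophil markers, which share Fcer1a, Ms4a2 and Hdc with mast cells, 3 were higher in SJW tumours than in AOM tissue (Ms4a2, Fcer1a, Mcpt8). In control-diet tumours 5 were higher (Fcer1a, Ms4a2, Hdc, Il3ra, Cd200r3). These calls include mast cell genes counted above, and Ms4a2, Mcpt8, Cd200r3 and Hdc passed the filter on dim probes only through tumour groups. The mean of the 8 basophil markers was -0.35 to 0.02 in SJW tumours and -0.22 to 0.40 in control-diet tumours. In AOM tissue it was -0.61 to -0.34 on the SJW diet and -0.57 to -0.40 on the control diet. Mcpt8, the defining basophil protease, was well above background on 2 SJW and 3 control-diet tumour arrays and on no non-tumour array. Of 9 measured leukocyte and myeloid markers 2 were higher in tumours than in AOM tissue in each diet, and their mean was 0.26 to 0.36 in SJW tumours and -0.03 to 0.32 in control-diet tumours, against -0.49 to 0.59 in AOM tissue on the SJW diet and -0.58 to 0.13 on the control diet. Against saline tissue 7 of these 9 were higher on the SJW diet and 6 on the control diet, with medians of 1.58 and 1.07. Of 9 fibroblast and matrix genes 4 were higher in SJW tumours, and 6 higher and 1 lower in control-diet tumours, than in AOM tissue. Against saline tissue 7 of 9 were higher in each diet, with medians of 2.09 on the SJW diet and 1.88 on the control diet. The fibroblast mean was 0.16 to 0.67 in SJW tumours and -0.03 to 0.10 in control-diet tumours, -0.85 to 0.38 and -0.73 to -0.47 in AOM tissue on the SJW and control diets, and -1.78 to -1.22 and -1.82 to -1.49 in saline tissue on the SJW and control diets. Of 7 measured neutrophil markers 0 passed in SJW tumours and 3 were higher in control-diet tumours against AOM tissue, and against saline tissue 3 were higher and 1 lower on the SJW diet and 3 higher on the control diet. Of 5 measured eosinophil markers none passed except 2 that were lower in SJW tumours than in saline tissue. Against AOM tissue 0 of 7 T and natural killer cell markers passed in SJW tumours and 2 were higher in control-diet tumours (Cd4, Gzmb). Of these, Gzmb passed the filter on dim probes only through tumour groups. Of 7 tuft cell markers 1 was higher in SJW tumours and 0 passed in control-diet tumours. Among 8 measured pancreatic acinar markers 2 were lower in SJW tumours and 1 in control-diet tumours. Of 9 colon epithelium genes 7 were lower in SJW tumours and 8 in control-diet tumours than in AOM tissue. Of 4 measured markers of interstitial cells of Cajal, the gut pacemaker cells that also carry Kit, 3 were lower and 1 higher in tumours than in AOM tissue in each diet.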

How the data were processed

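RNA of 18 intestine samples was measured on 18 arrays. Per the file headers, arrays were read with Agilent Feature Extraction 10.10.1.1; the deposited intensity values are median spot and background signals, and the deposited log10 values are ratios of red to green as corrected by that software. The deposited log2 table tracked log2 of the red to green ratio of processed signals (slope 0.99995 to 1.00004), so scale and direction are known; column medians of -0.03 to 0.34 show no centring. Here, background was corrected with normexp (offset 50), log2 ratios were normalized by loess, and control and outlier spots were left out. A probe was kept where some group had red well above background on each of its 3 arrays (34081 of 41174), and the brightest per gene was used. Of 41174 probes 27050 had 1 symbol, 14124 none and 0 several. The 26073 genes entered limma 3.58.1 (R 4.3.3), in 1 fit of 6 groups with 12 residual degrees of freedom; p-values were adjusted within each of 11 comparisons. Alternatives were median centring, the scanner's ratio, the deposited table, red alone, no filter, mean of probes, slide or replicate blocks, green intensity as a covariate and leaving out each array. Correlations within groups were 0.903 to 0.958; the number of arrays limits the precision.

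Same-numbered non-tumour arrays shared a slide; deviations from group means correlated at -0.35 to 0.41 over 18 pairs, and at -0.16 to 0.14 over 3 tumour pairs, so numbers were not taken as pairs. The script was tested on simulated data.

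The 9 genes and all lists were chosen with earlier results of these data known. Named genes were the members and the 10 genes most like each protease profile. Of each further list, genes were named from up to 4 called genes with the smallest p per comparison. Not all of these are named above (Rab27b and Ltc4s, both lower in tumours, are not). Chromosome 14 neighbours, Lct, Alb and markers of other cells were added beside them. Promoters were aligned with Biopython.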

Additional observations from a re-analysis of the deposited data

How the results depend on the processing

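Calls rest on 3 arrays a group. Mcpt1, Mcpt2, Cpa3 and Ms4a2 had pool signals near background on many arrays, and the part of this in the changes below was not tested. Against AOM tissue the number of genes passing fell to 3 on the SJW diet with median centring, with the scanner's ratio and with the deposited table (5 as reported), and to 2 on the control diet with the scanner's ratio and the deposited table (6 as reported). Against saline tissue it was 5 to 7 in all 9 settings in both diets, and between AOM and saline tissue and between diets it was 0 in every setting. With the replicate block the counts were 5 and 6 against AOM tissue and 7 and 7 against saline tissue on the SJW and control diets, as without it. Leaving out each array gave 1 to 7 and 1 to 6 genes against AOM tissue, 4 to 7 and 7 to 7 against saline tissue on the SJW and control diets, and 0 in all other comparisons. A fit of the 12 non-tumour arrays alone, chosen after seeing the data, also gave 0. Signs turned for Ms4a2 with median centring (tumour against saline on the control diet -0.50, AOM against saline -0.54) and, between AOM and saline, with the scanner's ratio and deposited table (-0.10 in both on the control diet, 0.61 and 0.44 on the SJW diet) and red alone (0.025 on the SJW diet). Mcpt1 in SJW tumours against AOM tissue turned to -0.20 with the scanner's ratio and the deposited table. Cma1 in control-diet tumours against saline tissue turned to -0.16 with both of these and to -0.28 with red alone. Without 1 array, signs turned for Cma1 in control-diet tumours against saline tissue (-0.23 to 0.39) and, between AOM and saline on the SJW diet, for Ms4a2 (-0.086 to 0.069), Tpsb2 (-0.18 to 0.37) and Fcer1a (-0.074 to 0.18); none of these passed as reported. In the 5 diet comparisons 100 of 1104 refitted differences turned sign and 0 passed. The mucosal minus connective-tissue value moved with the scanner's ratio to 3.19 and 2.85 in tumours, 2.16 and 2.24 in AOM tissue and 2.46 and 2.34 in saline tissue on the SJW and control diets; with red alone to 1.07 and 1.17 in tumours, -0.71 and -0.49 in AOM tissue and -0.80 in saline tissue on the control diet; and with median centring to 0.60 in that last group. Tumours stayed above AOM and saline tissue in all 3 settings. Without 1 array it was 1.84 to 1.95 and 1.62 to 2.36 in tumours, -0.09 to 0.29 and 0.23 to 0.83 in AOM tissue, and -0.38 to 0.88 and -0.27 to -0.03 in saline tissue on the SJW and control diets. The cause of these shifts was not tested.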
